A study of Mus musculus with 6 samples.

Results

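Chromatin accessibility was followed at 37 genes of the lysosome and of autophagy, chosen by name from 21938 protein-coding genes. They were 3 transcription factors (Tfeb, Tfe3 and Mitf), 6 lysosomal membrane proteins, 7 proteases, 7 glycosidases and 3 sulfatases. The rest were 3 lipid enzymes or activators, 5 subunits of the vacuolar proton pump (V-ATPase), 2 autophagy proteins (Sqstm1 and Map1lc3b) and granulin. The measurements were 6 ATAC-seq libraries, in which a transposase marks accessible DNA with sequencing adapters. Input for a library was 3 S1 proximal tubules dissected by hand, the part of the nephron that directly follows the glomerulus, of wild-type male C57BL/6 mice 7 weeks old, sampled 24 h after surgery. The 3 Sham libraries followed a sham operation and the 3 UNx libraries a unilateral nephrectomy, the surgical removal of 1 kidney. Both groups are labelled as wild type with no further treatment named, and which mouse a library came from is not in the labels, so p-values measure only the spread between these libraries, which may be technical. A dissected tubule can carry a few cells of other types, and a change in accessibility per cell and a change in the share of cells cannot be told apart.

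For each library the authors deposited a list of peaks, intervals with more transposase cuts than the background. A peak's value here is its percentile rank by −log10 q among the 77355 strongest peaks of its own list, with 100 for the strongest peak and 0 for a region not among them. A promoter region is the strongest region with its summit within 1 kb of an annotated start of the gene. Differences are UNx minus Sham in percentile points, tested with limma over 74781 regions and adjusted over all of them by the Benjamini-Hochberg method, with a threshold of 0.05.

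Lysosomes are acidic organelles in which hydrolases digest proteins, glycans and lipids that arrive by endocytosis or in autophagosomes. Cells of the first proximal tubule segment take up filtered protein from the urine in bulk and pass it to lysosomes for breakdown, and they are rich in both endosomes and lysosomes. TFEB, TFE3 and MITF are related helix-loop-helix factors. When the kinase mTORC1 is inactive they enter the nucleus and bind E-box elements, known at lysosomal genes as CLEAR elements, built around the letters CACGTG.

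The promoters of several members carry that core more than once, and the sequences are printed here because the accessible regions described afterwards lie over them. Of the 37 genes, 31 were matched in RefSeq (build GRCm38.p6), where a window of 250 bases before to 50 after each start was searched on both strands. CACGTG stood in a window of 13 of the 31 genes (41.9%), against 9.18% of 16522 genes. GTCACGTG, which contains that core, stood in 10 of the 31 (32.3%), against 3.30% of all genes. Lamp1 had 4 copies of CACGTG, between 61 and 15 bases before its start, and all 4 lay inside its accessible region. Mcoln1 had 2 copies at 71 and 45 bases, Ctsd 2 at 245 and 98 bases, Gla 2 at 227 and 194 bases, and Naglu 1 at 73 bases before the start, only 6 bases from the summit of its peak. These distances are from RefSeq starts, whereas promoter regions were assigned by GENCODE starts. At Mcoln1, Ctsd and Naglu the RefSeq start lies further into the gene than the first GENCODE start, and a copy in each lies past the latter. The 250 bases before the start are given 5′ to 3′ on the gene's strand, with CACGTG, TCACGTGA and GTCACGTG in capitals, also where they are read on the other strand.
Lamp1 (chr8:13158911-13159160, strand +): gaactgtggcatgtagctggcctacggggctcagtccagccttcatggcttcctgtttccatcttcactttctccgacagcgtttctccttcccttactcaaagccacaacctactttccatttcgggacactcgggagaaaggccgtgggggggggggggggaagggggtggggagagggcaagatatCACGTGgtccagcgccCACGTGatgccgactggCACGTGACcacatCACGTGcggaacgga
Mcoln1 (chr8:3500269-3500518, strand +): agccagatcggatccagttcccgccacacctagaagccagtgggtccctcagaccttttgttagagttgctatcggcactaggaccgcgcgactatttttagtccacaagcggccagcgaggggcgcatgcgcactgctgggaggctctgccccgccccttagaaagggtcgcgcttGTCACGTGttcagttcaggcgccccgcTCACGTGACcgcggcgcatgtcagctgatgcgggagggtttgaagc
Ctsd (chr7:142387828-142388077, strand -): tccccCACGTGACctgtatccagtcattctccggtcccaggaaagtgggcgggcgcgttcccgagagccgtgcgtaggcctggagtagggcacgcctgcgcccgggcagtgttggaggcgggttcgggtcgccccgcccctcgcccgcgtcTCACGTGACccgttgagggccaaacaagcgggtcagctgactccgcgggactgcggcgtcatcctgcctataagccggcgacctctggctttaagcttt
Gla (chrX:134601006-134601255, strand -): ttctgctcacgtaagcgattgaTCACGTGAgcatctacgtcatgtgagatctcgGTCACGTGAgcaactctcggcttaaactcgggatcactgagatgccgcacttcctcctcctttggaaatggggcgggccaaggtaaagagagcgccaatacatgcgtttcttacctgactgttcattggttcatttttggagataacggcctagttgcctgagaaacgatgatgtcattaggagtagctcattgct
Naglu (chr11:101069844-101070093, strand +): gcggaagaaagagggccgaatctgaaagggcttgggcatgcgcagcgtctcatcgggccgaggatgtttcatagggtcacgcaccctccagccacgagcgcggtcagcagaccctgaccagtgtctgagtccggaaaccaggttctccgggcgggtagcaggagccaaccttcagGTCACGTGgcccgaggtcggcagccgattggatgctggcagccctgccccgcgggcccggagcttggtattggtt

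The same letters were frequent near the summits of the members' peaks. Within 100 bp of the promoter summit, GTCACGTG was found at 10 of the 36 members with a promoter region (27.8%), against 2.83% of the 12067 tested promoter regions of all protein-coding genes. These were Ctsd, Mcoln1, Lamp1, Atp6v0d1, Hexa, Glb1, Naglu, Gaa, Sgsh and Ctsb. CACGTG was found at 11 (30.6%, against 6.81%) and TCACGTGA at 6 (16.7%, against 1.17%). The full palindrome, with GTCACGTG on both strands at once, was found at 0 of the 36 and at 0.448% of all. Tfeb, Tfe3 and Mitf had none of these strings near their own promoter summits. By summit and by window together, 13 members held GTCACGTG and 7 held it in both searches. Away from starts the string stood in 2 of 189 regions around the members (1.06%), against 0.777% of all regions over 1 kb from a start. A match describes letters, not a bound factor, and members were known as lysosomal genes before the search. The element itself was described at lysosomal genes, so the higher share among members is not an independent finding.

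**Figure D1:**
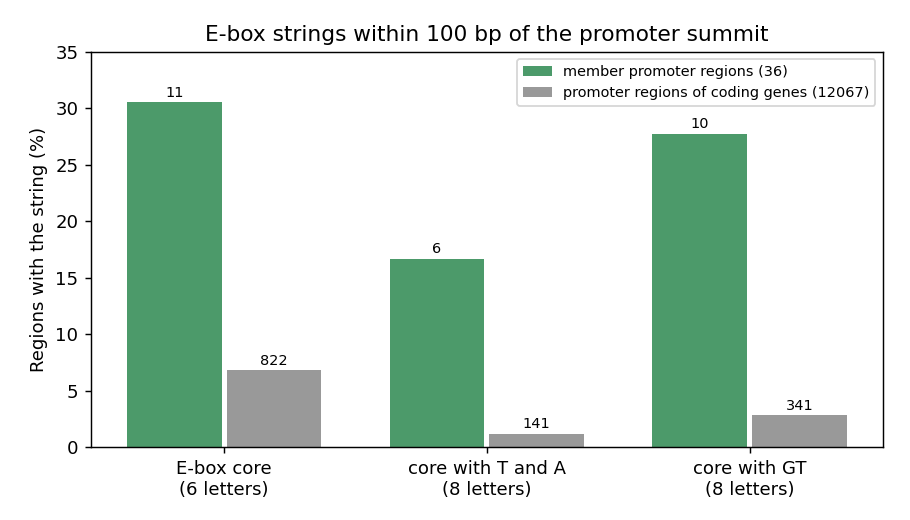
Share of promoter regions (%, vertical axis) that hold each E-box string within 100 bp of the summit, for 36 members (green) and 12067 promoter regions of protein-coding genes (grey); numbers above the bars are regions with the string. GTCACGTG, shown as the core with GT, stands in 27.8% of member promoters and 2.83% of all.

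Of the 37 members, 36 had a promoter region, and each of the 36 was in all 6 lists and was tested. Their mean rank over the 6 libraries ran from 58.35 at Hexa to 99.98 at Asah1, with a median of 87.45 against 85.77 for all coding promoters, and 17 of the 36 stood above 90, where 38.7% of all coding promoters stand. The exception was Arsa, the sulfatase that breaks down sulfatide, which had no summit within 1 kb of its start in any full list. Its nearest region, over an exon of the gene at chr15:89475742-89476598 and 1203 bp from the start, had a mean rank of 91.6 ± 0.288 in Sham against 95.4 ± 2.99 after UNx (SD, n = 3 each; limma adjusted p = 0.283). That region lies within 1 kb of an annotated start of another gene, so it does not belong to Arsa alone. Just inside the 1 kb rule stood the chosen region of Atp6v1b2 at 662 bp. A region of Cd63 at 1019 bp upstream was just outside it.

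No member promoter differed between the operations past the threshold. limma called 0 of 36, where 0.423% of coding promoters were called. At an unadjusted p under 0.05 there were 6 of 36, where the share of all coding promoters is 13.5%. The 3 UNx values lay wholly above the 3 Sham values at 5 members (Naglu, Hexa, Cd63, Tfeb and Grn; 9.43% of all coding promoters) and wholly below them at 2 (Psap and Gusb; 10.7% of all). The median difference was 0.595 points, against −0.184 for all coding promoters. The mean was higher after UNx at 22 members and lower at 14. With ranks corrected for GC content, and with ranking by fold enrichment, the split turned to 14 higher and 22 lower, so the direction of the list turned with the scaling. All coding promoters moved down as well. After GC correction the median was −0.691 for members and −1.07 for all coding promoters, and by fold enrichment −1.32 and −1.14. The wholly separated members turned as well, to 2 above and 6 below after GC correction and 2 above and 1 below by fold enrichment. Tfeb and Grn were not wholly above in either setting. The matching shares of all coding promoters were not counted there.

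**Figure D2:**
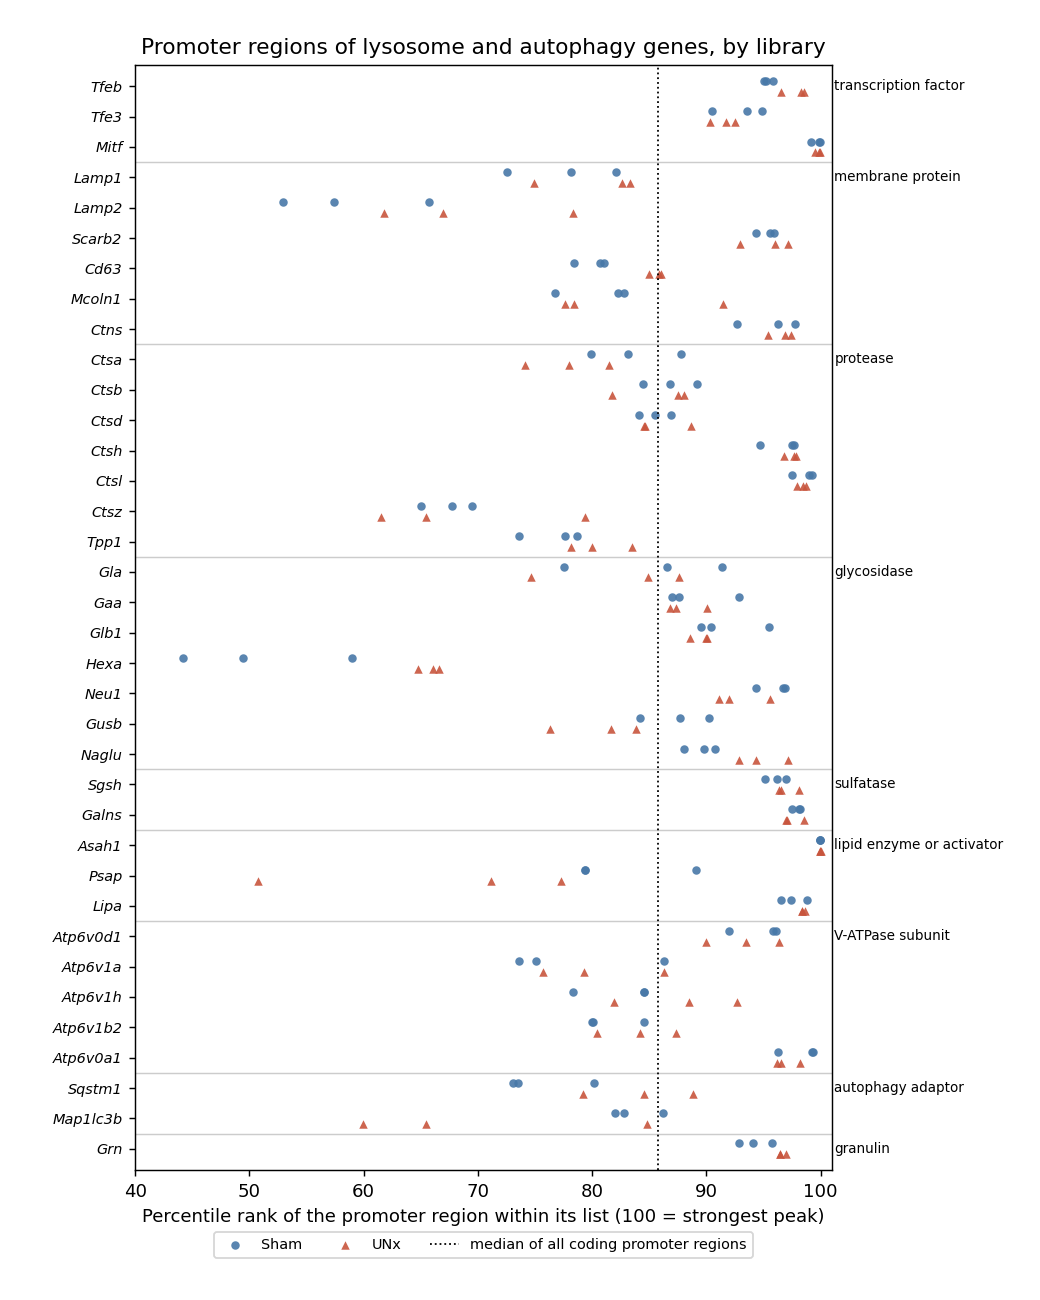
Percentile rank of each member's promoter region within its list (horizontal axis, 100 = strongest) in the 3 Sham (circles) and 3 UNx (triangles) libraries, ordered by role, with the median of all coding promoters dotted. Hexa and Lamp2 rank lowest, Mitf and Asah1 highest, and the Sham and UNx symbols overlap at 29 of 36 genes. The role labelled autophagy adaptor holds the autophagy proteins Sqstm1 and Map1lc3b.

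**Figure D3:**
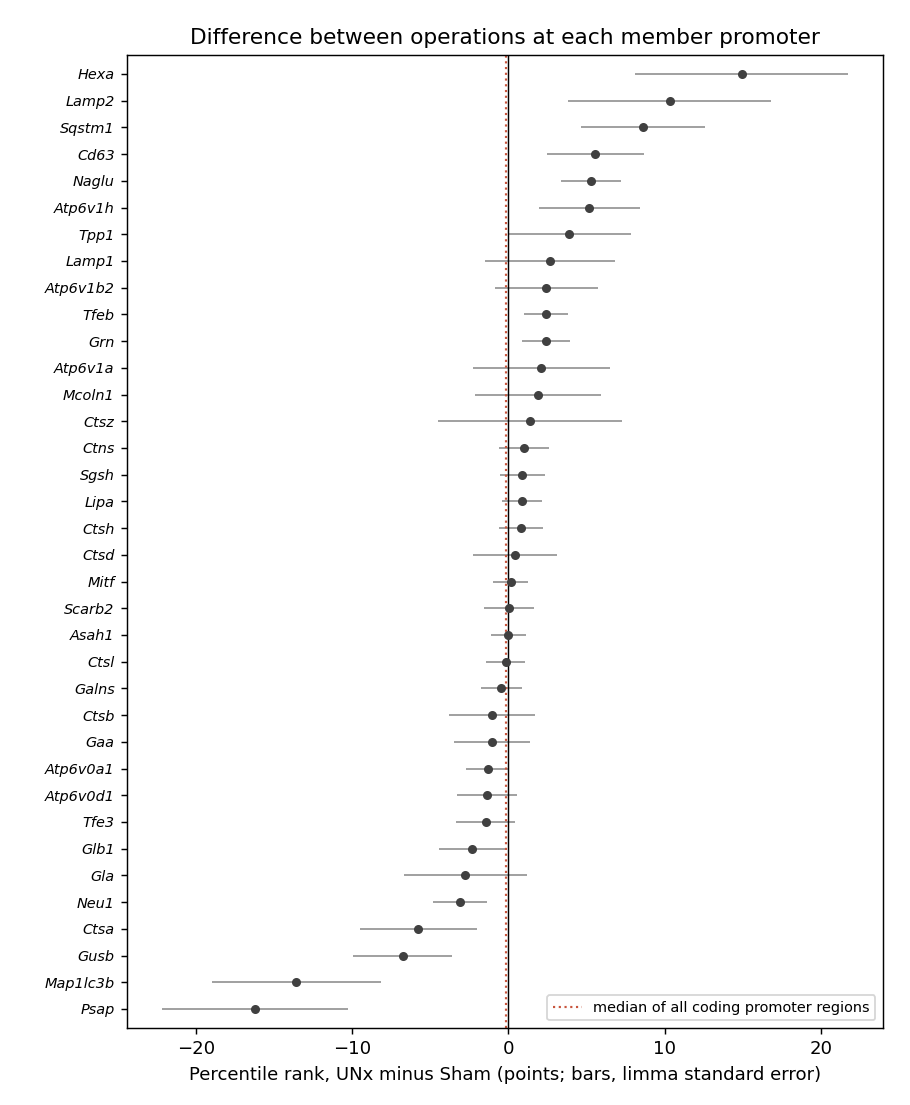
Difference in percentile rank at each member promoter, UNx minus Sham in points, with the standard error of the limma fit (bars) and the median of all coding promoters (dotted). Differences run from −16.2 at Psap to 14.9 at Hexa.

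The 3 transcription factor genes were open in every library. The Mitf promoter (chr6:97806478-97807902) ranked at 99.9, 99.9 and 99.2 in Sham libraries 1, 2 and 3 and at 99.5, 99.95 and 99.9 in UNx libraries 1, 2 and 3. That placed it among the strongest members, with no separation of the groups (difference 0.14 ± 1.13 SE; limma adjusted p = 0.965). The Tfeb promoter (chr17:47736845-47738644, 1800 bp wide) ranked at 95.8, 95.0 and 95.2 in Sham and at 98.3, 98.5 and 96.5 in UNx libraries. The 3 UNx values were above the 3 Sham values by a small step, 2.43 ± 1.40 points (SE), short of the threshold (limma adjusted p = 0.366). Tfe3, on the X chromosome (chrX:7762359-7763144), ranked at 93.6, 90.5 and 94.9 and at 90.4, 91.7 and 92.5, with overlapping groups (difference −1.45 ± 1.90; limma adjusted p = 0.728).

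The smallest p-values at Tfeb and Mitf were at intron regions. None of them was called by limma with the ranking defined above, and 3 passed the threshold under an alternative given beside them. An intron region of Tfeb, 25561 bp from the gene's first start (chr17:47762003-47763146), ranked at 82.9, 75.0 and 73.7 in Sham and at 91.4, 93.0 and 87.7 in UNx libraries. All UNx values were above all Sham values, by 13.5 ± 3.26 points (SE; limma adjusted p = 0.0556, and 0.0467 with normal scores in place of ranks). Over the other alternatives the difference kept its sign, with a limma adjusted p from 0.0556 to 0.402. A weaker intron region of Tfeb, 19654 bp from the first start, was chosen after its values were seen: it ranked at 41.8, 38.5 and 19.9 and at 57.7, 64.7 and 63.3 (limma adjusted p = 0.101). Over the 11 tested regions of Tfeb away from starts, UNx lay wholly above Sham in 3 and wholly below in 0, where each share is 12.2% among all regions over 1 kb from any start. Of the 3, 1 was in the lists of UNx libraries only and so had to differ once it was tested.

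Mitf, a long gene with several starts, had 18 tested regions away from starts. UNx lay wholly above Sham in 5 of them and wholly below in 2, counts on few regions of 1 locus that are set against the same 12.2% in each direction and read no further. The most separated (chr6:97919195-97919790) lies in an intron, 10339 bp before an internal start, and ranked at 71.9, 49.9 and 75.8 in Sham and at 91.1, 88.1 and 89.2 in UNx libraries (difference 23.6 ± 5.48; limma adjusted p = 0.0506). It passed the threshold with normal scores (0.0128) and among peaks with a −log10 q of at least 5 (0.0496). Over the alternatives other than normal scores the difference kept its sign, with a limma adjusted p from 0.0496 to 0.401. Sham 2 was the lowest library there, and the UNx libraries stood within a narrow range. The next (chr6:97877234-97878050), also in an intron, ranked at 6.64, 25.4 and 18.7 and at 45.8, 55.6 and 64.9 (difference 38.5 ± 10.2; limma adjusted p = 0.0720, and 0.0494 with normal scores). Its limma adjusted p ran from 0.0609 to 0.194 over the other alternatives. Past that internal start, the region with its summit 946 bp from the start went from 33.8 ± 13.0 to 50.1 ± 2.79 (SD, n = 3 each), well below the rank of the first promoter in both groups (limma adjusted p = 0.369). Closer to the start, a region with its summit 71 bp away was among the ranked peaks of UNx 1 only, at 1.98, and was not tested.

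**Figure D4:**
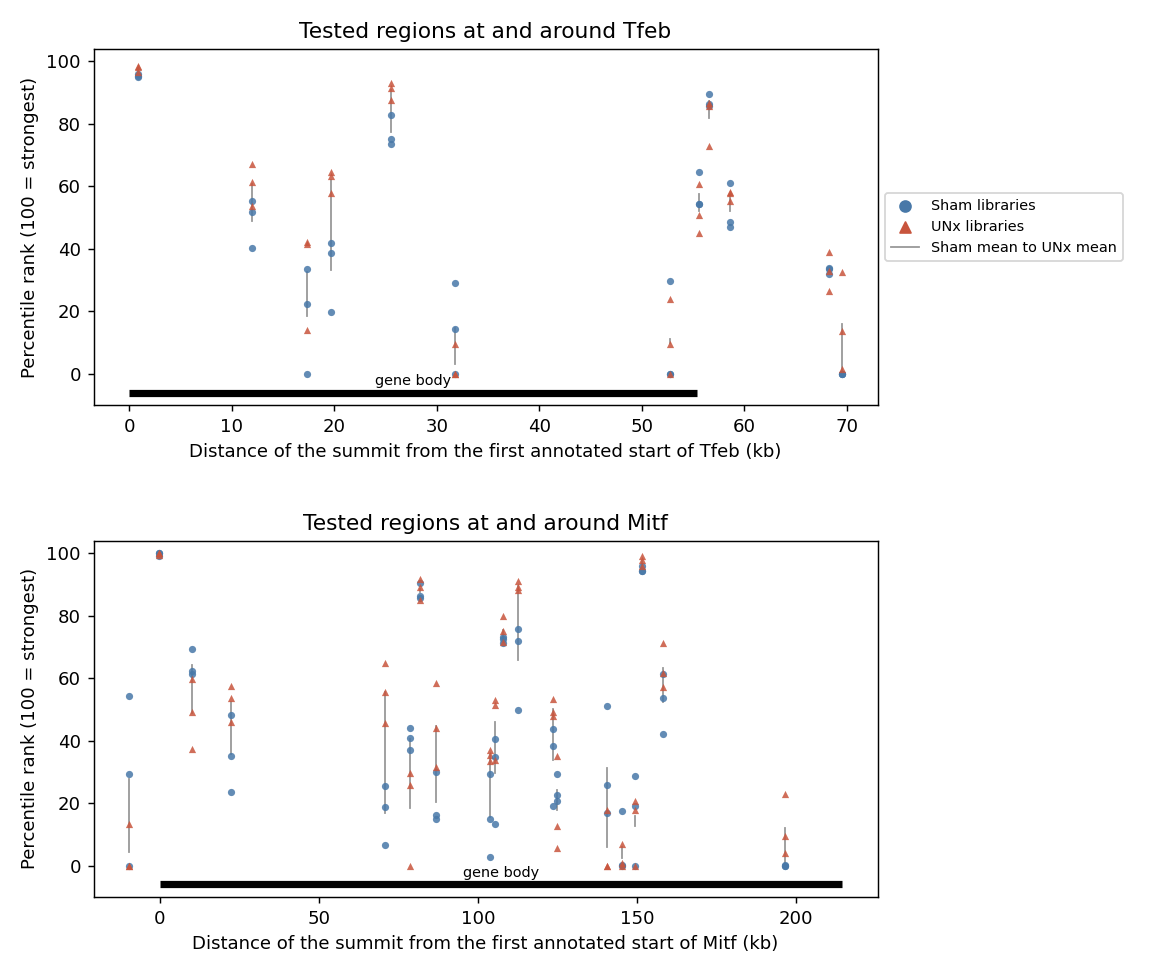
Percentile rank (vertical axis, 100 = strongest) of every tested region at and around Tfeb and Mitf against the distance of its summit from the gene's first annotated start (kb); circles are Sham and triangles UNx libraries, and a line joins the group means. The first promoters rank above 95 in both operations, and the widest gaps lie in introns.

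Among membrane proteins, the mean was higher after UNx at 6 of 6 promoters, none past the threshold, and at 4 of 6 under GC correction, under ranking by fold enrichment and without Sham 2 or UNx 3. Lamp2, which encodes an abundant membrane protein needed for fusion with autophagosomes, had the lowest promoter of the role at 57.4, 53.0 and 65.7 in Sham and 78.4, 61.7 and 67.0 in UNx libraries. The UNx values were mostly higher, but 61.7 lies below the highest Sham value (difference 10.3 ± 6.49; limma adjusted p = 0.409). Lamp1, its close relative and the gene with 4 E-box cores, ranked at 78.2, 72.6 and 82.1 and at 83.3, 74.9 and 82.6, with overlapping groups (limma adjusted p = 0.78). Mcoln1, the calcium channel of the lysosome, ranked at 82.2, 82.8 and 76.7 and at 77.6, 78.4 and 91.4, where UNx 3 stood above the other 5 libraries. Cd63, a tetraspanin, went from 80.0 ± 1.45 to 85.6 ± 0.562 (SD, n = 3 each) with all UNx libraries above all Sham libraries (limma adjusted p = 0.348). Ctns, the cystine exporter, and Scarb2, the receptor that delivers glucocerebrosidase, ranked above 92 in every library. The Ctns region is also the promoter of its neighbour Shpk.

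Protease promoters differed little. The means were higher at 4 and lower at 3 of 7, and the groups overlapped at all 7. Ctsl, cathepsin L, was among the strongest members at 99.2, 97.5 and 99.0 in Sham and 98.5, 98.7 and 98.0 in UNx libraries. Ctsd, the aspartic protease cathepsin D, ranked at 84.1, 85.5 and 86.9 and at 84.6, 84.5 and 88.7. Ctsb, cathepsin B, ranked at 84.5, 89.1 and 86.8 and at 88.1, 87.5 and 81.7. The limma adjusted p was 0.964 for Ctsl, 0.957 for Ctsd and 0.882 for Ctsb. Ctsz, a carboxypeptidase, was the weakest of the role at 65.0, 67.7 and 69.5 and at 65.5, 61.5 and 79.4. Its UNx libraries spread from below to above the Sham libraries (limma adjusted p = 0.93). Ctsa, Ctsh and Tpp1 ranked between 73.6 and 97.8, and the Ctsa region is shared with Neurl2.

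Glycosidases held the widest range of levels and 3 of the 6 smallest p-values. Naglu, which removes N-acetylglucosamine from heparan sulfate, ranked at 88.0, 89.8 and 90.7 in Sham and at 94.4, 97.2 and 92.9 in UNx libraries (chr11:101069745-101070559). All UNx libraries were above all Sham libraries, by 5.29 ± 1.92 points (SE; unadjusted p = 0.0127, limma adjusted p = 0.153). Hexa, the alpha subunit of hexosaminidase, was the weakest member promoter and ranked at 49.4, 44.2 and 59.0 and at 64.8, 66.0 and 66.6, a difference of 14.9 ± 6.84 with no overlap (limma adjusted p = 0.25). Gusb, beta-glucuronidase, lay the other way at 90.2, 87.7 and 84.2 and at 76.3, 81.6 and 83.8, also with no overlap (difference −6.78 ± 3.17; limma adjusted p = 0.26). Both directions thus occurred within the role, whose mean was higher at 2 and lower at 5 of 7.

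The other glycosidases overlapped between groups. Glb1, the beta-galactosidase, ranked at 89.5, 95.5 and 90.4 and at 88.5, 90.1 and 89.97. Gaa, the acid alpha-glucosidase, ranked at 87.6, 87.0 and 92.8 and at 87.4, 90.1 and 86.8. Gla, the alpha-galactosidase whose window holds 2 E-box cores, went from 85.1 ± 7.02 to 82.4 ± 6.87 (SD, n = 3 each), with a wide spread in both groups. Neu1, a sialidase, went from 96.0 ± 1.42 to 92.9 ± 2.39 (limma adjusted p = 0.346). The Gla region also serves Hnrnph2 and the Glb1 region Tmppe, so neither belongs to 1 gene.

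The 2 sulfatase promoters present were strong. Sgsh, which acts on heparan sulfate, ranked at 96.9, 95.1 and 96.2 in Sham and at 96.3, 96.5 and 98.1 in UNx libraries, with overlap (limma adjusted p = 0.783), and its region is shared with Slc26a11. Galns, which acts on keratan sulfate, stood above 96 in every library, and its region is shared with Trappc2l. Asah1, the acid ceramidase, was the strongest member of all. It ranked at 99.99, 99.99 and 99.96 and at 99.99, 99.97 and 99.98, which in the full lists is between 5th and 30th place. Lipa, the acid lipase, ranked above 96 throughout.

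Psap, which encodes the precursor of the saposins that present sphingolipids to their hydrolases, had the largest lower difference. Its promoter (chr10:60277375-60278266) ranked at 79.4, 89.1 and 79.3 in Sham and at 77.3, 50.8 and 71.1 in UNx libraries. Every UNx library was below every Sham library, with UNx 2 far below the others (difference −16.2 ± 5.98; unadjusted p = 0.0141, limma adjusted p = 0.159). The authors' fold enrichment of its peak ran from 5.21 to 9.31 over the 6 lists.

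V-ATPase subunits pump protons into the lysosome. Of 5 promoters, 3 had a higher and 2 a lower mean, all with overlapping groups and levels from 79.36 to 97.62. Atp6v0d1 ranked at 92.0, 95.8 and 96.1 in Sham and at 96.4, 89.99 and 93.4 in UNx libraries (limma adjusted p = 0.751). Atp6v1h showed the largest difference among these 5 promoters, 5.19 ± 3.22 (limma adjusted p = 0.404), in a region at an internal start. A weaker region 404 bp past the first start of Atp6v1h lay the other way. It ranked at 41.6, 13.0 and 38.4 in Sham and at 19.7, 27.6 and 0 in UNx libraries, with overlapping groups (limma adjusted p = 0.517). The Atp6v1a region is shared with Naa50 and the Atp6v1b2 region with Slc18a1.

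The autophagy proteins lay in opposite directions. Sqstm1, p62, which links ubiquitinated cargo to the autophagosome, ranked at 80.2, 73.6 and 73.1 in Sham and at 88.8, 79.2 and 84.5 in UNx libraries. Only the lowest UNx library reached into the Sham range (difference 8.59 ± 3.97; unadjusted p = 0.0440, limma adjusted p = 0.254). Map1lc3b, the LC3 protein that is coupled to the autophagosome membrane, ranked at 82.8, 86.2 and 82.0 and at 65.5, 59.9 and 84.8. UNx 3 stayed in the Sham range while the other UNx libraries lay below it (difference −13.6 ± 5.42; unadjusted p = 0.0218, limma adjusted p = 0.189), and without UNx 3 the limma adjusted p was 0.0835. A smaller region 790 bp past the Map1lc3b start lay the other way, at 25.4, 38.5 and 30.3 in Sham and 62.8, 45.7 and 43.4 in UNx libraries (limma adjusted p = 0.288). Grn, granulin, a lysosomal chaperone precursor, went from 94.2 ± 1.43 to 96.6 ± 0.310 (SD, n = 3 each) with no overlap (limma adjusted p = 0.41).

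Beyond promoters, the member genes had 315 pairs of a gene with a region in its body or within 20 kb. Of these, 264 had a summit over 1 kb from every annotated start, and 191 were tested. limma called 2 of the 191, where 0.885% of the 58166 tested regions over 1 kb from any start were called. At an unadjusted p under 0.05 there were 35 (18.3%, against 19.6%). Of the 43 tested pairs at the start of another gene, 0 were called by limma and 11 had an unadjusted p under 0.05 (25.6%). Among all 16615 tested regions within 1 kb of a start these shares are 0.445% and 15.0%.

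The 2 called regions lay in opposite directions. The first (chr14:63164205-63165148) rose and lies 18952 bp beyond the end of Ctsb, in an intron of Fdft1, the squalene synthase gene whose start is nearer, at 12918 bp. It ranked at 32.6, 49.7 and 25.5 in Sham and at 76.3, 66.3 and 85.9 in UNx libraries. The groups were far apart, by 40.3 ± 8.06 points (SE; limma adjusted p = 0.0352). The second (chr10:60266728-60267612) fell and is intergenic, 10472 bp upstream of Psap, the nearest coding start. It ranked at 86.1, 86.6 and 83.2 in Sham and at 64.3, 69.1 and 59.3 in UNx libraries, a difference of −21.1 ± 4.59 (limma adjusted p = 0.0420). Both calls were lost with GC-corrected ranks (limma adjusted p = 0.0954 and 0.0723), and with all deposited peaks. Both were also lost without Sham 1 (0.0873 and 0.135), Sham 3 (0.106 and 0.128), UNx 1 (0.118 and 0.11) or UNx 3 (0.108 and 0.0868), and the Psap call without Sham 2 (0.122).

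Of the 6 regions with the smallest p, the one not yet described lies in an intron of Slc26a11, 8173 bp upstream of Sgsh (chr11:119363224-119364066). It ranked at 91.4, 91.5 and 94.1 in Sham and at 81.5, 85.0 and 80.0 in UNx libraries, with no overlap (difference −10.1 ± 2.51; limma adjusted p = 0.0604). The promoter of Sgsh itself, described above, did not separate the groups.

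**Figure D5:**
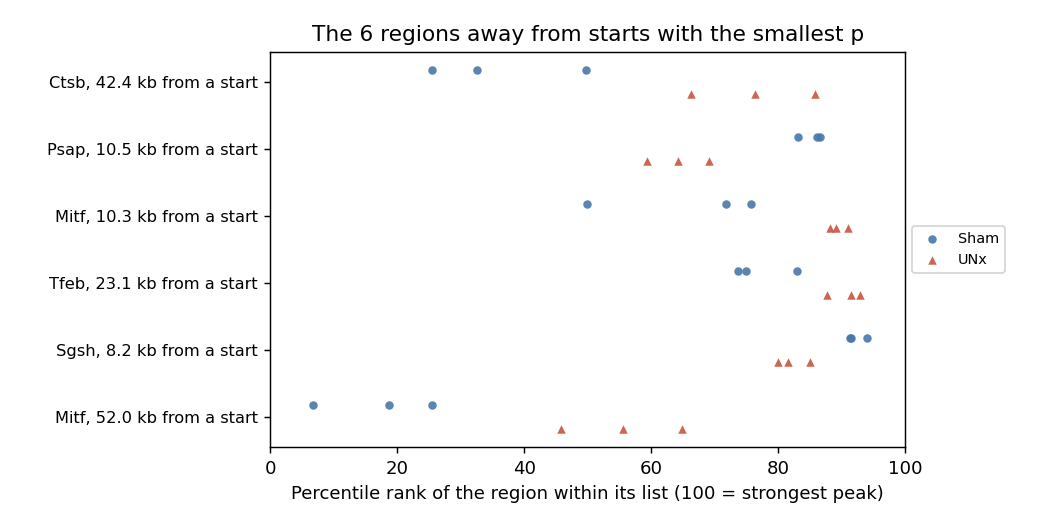
Percentile rank (horizontal axis, 100 = strongest) in the 3 Sham (circles) and 3 UNx (triangles) libraries of the 6 regions away from starts with the smallest p, labelled by member gene and distance to that gene's nearest start. The groups do not overlap in any of the 6, which the choice by p favours; 4 rank higher and 2 lower after UNx.

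The 201 bases around 4 of these summits are printed to show what the accessible sequence holds, from GRCm38, with the strings CAAAGTCC and GTTAAT, core letters known from HNF4 and HNF1 elements of proximal tubule genes, in capitals where either strand holds them. None of the 4 holds CACGTG or TGANTCA, the letters of the AP-1 family. The Psap region holds both of the first strings, 1 each and both read on the other strand. Among all regions over 1 kb from any start, 5.03% hold CAAAGTCC and 14.2% hold GTTAAT within 100 bp of the summit.
Region beyond Ctsb (chr14:63164775-63164975, strand +): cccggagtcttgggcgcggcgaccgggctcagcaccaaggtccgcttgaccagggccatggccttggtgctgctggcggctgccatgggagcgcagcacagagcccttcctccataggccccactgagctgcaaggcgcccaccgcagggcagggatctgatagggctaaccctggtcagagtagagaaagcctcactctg
Region upstream of Psap (chr10:60267055-60267255, strand +): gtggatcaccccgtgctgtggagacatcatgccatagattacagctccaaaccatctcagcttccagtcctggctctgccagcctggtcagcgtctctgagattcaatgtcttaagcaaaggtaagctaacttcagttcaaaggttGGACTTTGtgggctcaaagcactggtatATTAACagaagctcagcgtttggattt
Intron region of Tfeb (chr17:47762491-47762691, strand +): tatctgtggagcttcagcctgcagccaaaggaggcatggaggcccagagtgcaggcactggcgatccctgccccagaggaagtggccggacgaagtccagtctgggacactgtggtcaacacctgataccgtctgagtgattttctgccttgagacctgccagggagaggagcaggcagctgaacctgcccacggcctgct
Intron region of Mitf (chr6:97919360-97919560, strand +): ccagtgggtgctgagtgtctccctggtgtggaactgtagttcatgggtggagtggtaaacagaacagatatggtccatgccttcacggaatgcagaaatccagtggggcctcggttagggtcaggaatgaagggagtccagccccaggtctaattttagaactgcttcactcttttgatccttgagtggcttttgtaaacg

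Inside gene bodies UNx lay above Sham more often than below. Of 86 tested regions in the bodies of 26 members, UNx lay wholly above Sham in 20 (23.3%), where the share among regions in coding gene bodies is 13.3%, and wholly below in 5 (5.81%, against 10.8%). The median difference was 4.18 points, against 0.753 for regions in all coding gene bodies. In the flanks 8 of 105 were above and 15 below, against 12.2% above and 12.2% below for all regions over 1 kb from any start. A region in the lists of 1 group only had to differ once it was tested. Without such regions, left out after the data were seen, 18 of 83 were above (21.7%, against 12.0% in all coding gene bodies) and 4 below (4.82%, against 9.85%), with a median difference of 3.25 points against 0.701. The 20 regions lay in 12 genes. Tfeb and Mitf held 7 of them, and the other members had 13 of 63 above (20.6%) and 3 below (4.76%). Regions in 1 gene share their locus and were chosen by position, so these counts are a description with no test. The excess of above over below in gene bodies was present under every alternative in which it was counted, with 23 and 6 of 86 after GC correction and 24 and 10 of 79 without UNx 3. Among all regions over 1 kb from any start the shares above and below were 12.3% and 12.2% after GC correction. Without UNx 3 they were 16.3% and 17.4%.

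Examples of the body regions were chosen after their values were seen. An intron region of Psap (chr10:60290174-60290494) was not among the ranked peaks of any Sham list and ranked at 33.5, 27.7 and 33.2 in UNx libraries. It entered the test through the UNx lists alone, so its p is not given. An intron region of Cd63, 1775 bp from a start, ranked at 14.0, 20.4 and 10.4 in Sham and at 51.0, 34.3 and 65.2 in UNx libraries (limma adjusted p = 0.105). One in Lipa, 15829 bp from the start, ranked at 27.6, 34.5 and 44.7 and at 58.2, 58.1 and 73.2 (limma adjusted p = 0.103). All 3 are weak to moderate regions, and all had UNx libraries wholly above Sham libraries.

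Among 96 other genes of the pathway, 88 had a promoter region and 87 were tested. limma called 0, where 0.423% of all coding promoter regions were called. At an unadjusted p under 0.05 there were 11 (12.6%, near the 13.5% of all coding promoter regions), 4 higher and 7 lower after UNx, with a median difference of −0.125 points. With a share near the background, the families below are named as a description only. Of the other V-ATPase genes 0 were higher and 3 lower (Atp6v0c, Atp6v1c1 and Atp6v1f), of other hydrolases 1 higher (Idua) and 2 lower (Ids and Ctso), of other membrane proteins 1 higher (Ostm1) and 1 lower (Clcn7), and of the autophagy machinery 2 higher (Ulk2 and Map1lc3a) and 1 lower (Ulk1). Of the 8 genes that control TFEB, such as Flcn and Mtor, 0 were in either direction. Ulk1, the kinase that starts autophagosome formation, had the smallest p. Its promoter (chr5:110809627-110810590) ranked at 98.2, 98.1 and 99.3 in Sham and at 89.2, 89.9 and 95.2 in UNx libraries. All UNx libraries were below all Sham libraries, by 7.11 ± 1.76 points (SE; limma adjusted p = 0.0598). That value passed the threshold without UNx 3 (0.0492), with normal scores (0.0133) and with a −log10 q of at least 5 (0.0483), but under no other alternative. The difference at Ulk1 kept its sign under the others, where the limma adjusted p ran from 0.0502 to 0.332. It was 0.151 when ranked by fold and 0.25 after GC correction. Ulk2, its relative, lay the other way at 84.4, 85.5 and 87.6 and at 88.8, 90.5 and 93.4 (limma adjusted p = 0.26).

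The lists held 77355 to 100999 peaks, with a median −log10 q from 12.1 in Sham 2 to 26.5 in UNx 3. The number of reads behind them is unknown. All 8 S1 markers had a promoter region, with summed ranks of 701 to 731 in Sham and 704 to 711 in UNx libraries. Of 6 intercalated cell markers 2 had one (Foxi1, Slc4a1, Atp6v1g3 and Atp6v0d2 at 0), with sums of 64.2 to 74.4 and 64.9 to 97.1. Of 6 markers of macrophages, which are rich in lysosomes, 1 had one (Ptprc, Csf1r, Adgre1, Cd68 and Lyz2 at 0), with sums of 0 in all Sham and 0 to 26.4 in UNx libraries. Loop and distal markers, 2 of 5 present (Slc12a3, Aqp2 and Scnn1b at 0), summed to 119 to 125 and 84.4 to 107, and endothelial, podocyte and stromal markers, 6 of 7 present (Pdgfrb at 0), to 113 to 131 and 63.0 to 113. Some markers counted as present were in few lists, Atp6v1b1 and Pecam1 in 1 and Cd74 and Kdr in 2. UNx lay wholly below Sham at the S1 markers Lrp2 and Cubn and at Slc12a1, Col1a1 and Flt1, and wholly above at no tested marker. Among all coding promoters 10.7% lie wholly below. Flt1 was in Sham lists only, so it had to differ once tested. Slc12a1, a loop marker, ranked at 57.9, 52.4 and 60.2 in Sham and at 38.2, 32.9 and 19.4 in UNx libraries (limma adjusted p = 0.131). The part of other cell types in the members' values was not tested.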

How the data were processed

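Peaks of 6 ATAC-seq libraries (3 Sham, 3 UNx) were analysed. Per the submitters' processing notes, cutadapt 3.4, Bowtie, SAMtools, Picard and MACS2 2.2.7.1 were used with the mouse build mm10, and 1 peak list was deposited per library, so replicates were not pooled. The filter behind the lists is not given in the sources used here. The deposited lists give each summit a display score, a fold enrichment (a ratio to background), a −log10 p, a −log10 q and a summit position. Peaks were ranked only within their own list, and deposited values given over several lists are a description. They hold no read counts, so the depth is unknown and no interval that needs it is given.

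Distinct intervals on chromosomes 1 to 19, X and Y were kept with their strongest summit. All intervals lay within GRCm38 chromosomes. By −log10 q the 77355 strongest peaks of a list, as many as the smallest list holds, were kept and turned into percentile ranks. Merging intervals that overlapped by at least 1 bp gave 99359 regions, and the 74781 present in at least 3 of 6 lists were tested two-sided with limma 3.58.1 (R 4.3.3; lmFit, then eBayes with its trend and robust options), adjusting over all tested regions by Benjamini-Hochberg with a threshold of 0.05. Starts and gene bodies came from GENCODE M21 (basic). Promoter sequences came from RefSeq windows and regions from the GRCm38 genome.

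The members and gene lists were chosen with earlier results of these data known. Members named with all 6 values were Tfeb, Tfe3 and Mitf, the 6 of smallest promoter p, the 3 highest and 3 lowest promoters, promoters absent from a list, those with GTCACGTG near the summit, and the 6 distal regions of smallest p. The strings TGANTCA, CAAAGTCC and GTTAAT and the counts in gene bodies were added after the data were seen. RefSeq windows of Ctsb, Ctsh, Asah1, Galns, Atp6v1h and Atp6v1b2 were not used here. On simulated ranks of the same 74781 regions the limma step called 0 regions with no change, and found 0 of 200 changed regions shifted by 20 points, 24 of 200 at 40 points and 128 of 200 at 60 points. The shifted regions were drawn only from those of middle mean rank. These figures therefore do not describe regions of high rank, such as most member promoters (median 87.45). The simulated noise was independent between regions and libraries. With no change 3829 simulated regions had an unadjusted p under 0.05, against 13896 in the data. Deviations shared by many regions of a library were not simulated, so the 0 calls set no bound on false calls in the real lists.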

Additional observations from a re-analysis of the deposited data

How the results depend on the processing

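All alternatives were planned except the counts in gene bodies, with or without regions in the lists of 1 group only. The number of member promoters called was 0 under every alternative run; the lowest limma adjusted p was 0.0835 (Map1lc3b without UNx 3). Over all regions 589 were called. That number was 22 when all deposited peaks were ranked, 2 for the 20000 strongest, 3 when ranked by fold, 108 for an overlap of at least 50%, 1583 for normal scores, 2 without the filter on lists and 2 after GC correction, but 618 with a −log10 q of at least 5 and 517 without trend and robust variance. Leaving out 1 library gave 30 to 379. The cause was not tested. The 2 called regions around members became 0 with all peaks, the 20000 strongest, ranking by fold, an overlap of 50%, no filter on lists or GC correction, 5 with normal scores (3 of them in gene bodies), 3 with a −log10 q of at least 5 (1 in a gene body) and 1, in the gene body of Psap, without trend and robust variance. Of the Psap body regions only 1 had separated groups, and it was in UNx lists alone, so it had to differ once tested. That call is not read as support. Counting gene body regions alone gave 0. Leaving out 1 library gave 0 to 2. The Ctsb region was called without Sham 2 or UNx 2 and the Psap region without UNx 2. The differences of both kept their sign, with a limma adjusted p from 0.00818 to 0.276 for Ctsb and from 0.0225 to 0.378 for Psap. The median difference of member promoters (0.595) was −1.32 when ranked by fold, 1.55 when ranked among promoter peaks and −0.691 after GC correction. For all coding promoters (−0.184) it was −1.14, −0.106 and −1.07 under the same settings. Leaving out 1 library gave 0.0289 to 0.872 for members. Of the other pathway genes 1 (Ulk1) was called with a −log10 q of at least 5, 1 with normal scores and 0 to 1 when 1 library was left out. Gene body regions wholly above Sham ranged from 4 to 31 and wholly below from 1 to 11, with more above than below in each. The 31, with 3 below, came with all deposited peaks. In that setting 15.0% of all regions over 1 kb from any start were above and 6.63% below, so part of the excess there was general. The unknown depth limits every rank of a weak peak.

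Libraries share replicate numbers across operations, but the deviations of same-numbered libraries had correlations of 0.00819, −0.100 and −0.0496, and a shared number was not taken as a pairing. With the replicate block 56 regions were called, 0 around members, with a median member difference of 0.595; under block and GC correction combined 0 were called, 0 around members, with a median of −0.691.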
